A study of Mus musculus with 10 samples.

Results

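The 50 genes described here lie on mouse chromosome 7 between FE65 (gene symbol Apbb1), the gene targeted in p97FE65 null mice, and Gprc5b. Gprc5b is a G protein-coupled receptor gene farther along the same chromosome. The list covers only part of that stretch and was chosen with earlier results of these data known. Of the 50 genes, 41 had a probe set annotated to that gene alone. They had 74 probe sets among them, out of 12393 genes and 22626 probe sets on the array. The other 9 (Dchs1, Zfp143, Pde3b, Calca, Xylt1, Arl6ip1, Smg1, Tmc7 and Ccp110) were not analysed here. The annotation places 64 measured genes from Apbb1 to Gprc5b, both ends included, and 23 of those are not in the list.

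Cerebral cortex RNA of male mice aged 6 months was hybridised to 1 Affymetrix mouse expression array per mouse, with 5 arrays labelled p97FE65 null and 5 labelled p97FE65 wild type. The null mice lack full-length FE65, an adaptor protein that binds the intracellular tail of the amyloid precursor protein. The line was made in R1 embryonic stem cells, which come from a strain other than C57Bl/6J, and was then crossed back to C57Bl/6J for 10 generations, and the study describes the animals as littermates, without saying which arrays make a pair. Both labels therefore share the C57Bl/6J background and can differ in DNA of the stem cell strain near the targeted gene.

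A targeted allele is inherited together with the chromosome on either side of it, because crossing over seldom separates close neighbours. Genes next to a target can thus keep the alleles of the stem cell strain through repeated backcrossing. On an oligonucleotide array such an allele can be seen in more than 1 way: the transcript level itself may differ, an exon may be used differently, or a base difference under a probe may weaken binding, which shifts 1 probe set of a gene and leaves the others. The listed genes were ordered along the chromosome by the annotation and have no common function. They include housekeeping factors of transcription and translation, vesicle and lysosome proteins, adhesion proteins, growth regulators, secreted factors and enzymes.

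The values are the authors' GC-RMA values, given per probe set on a log2 scale, on which a difference of 1 is a doubling. Medians over all probe sets lay between 3.01 and 3.14 on the 10 arrays, and array-to-array correlations over probe sets lay between 0.994 and 0.999. Of the 74 probe sets of listed genes, 43 (58.1%) had a mean of at least 5 over the arrays, against 34.6% of all probe sets, and are called bright here. Of the 41 genes, 28 had a bright probe set. Cell type markers varied widely within each list. Of 4 neuronal markers the brightest, Snap25, averaged 13.2 and the dimmest, Rbfox3, 4.16. Of 5 oligodendrocyte markers Mbp averaged 13.9 and Mog 5.03. Of 3 choroid plexus markers Ttr averaged 6.29 and Kl 1.82. The mean over 5 oligodendrocyte markers lay between 8.84 and 9.26 on the arrays labelled null and between 9.12 and 9.84 on those labelled wild type, with 5 of 5 markers below 0 in the difference (exact permutation test, two-sided, p = 0.0714), and that over 4 neuronal markers lay between 10.33 and 10.66 on the arrays labelled null and between 10.54 and 10.82 on those labelled wild type (exact permutation p = 0.119). Of the 4 neuronal markers, 3 were below 0. At an unadjusted p under 0.05 in the limma test described below, 2 of 5 oligodendrocyte and 2 of 4 neuronal markers differed. Over all genes by the brightest probe set that share was 3.94%. The part of these markers in the differences below was not tested. In whole cortex, fewer cells of a type and less RNA per cell cannot be told apart.

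For every probe set the mean of the arrays labelled null minus that of the arrays labelled wild type was tested with limma, a linear model with a shared variance estimate. Signed differences under these labels run opposite to those of the study for genes that it lists, both Apbb1 probe sets included, and for the Gprc5b region that it also measured by RT-PCR. With the 2 labels exchanged every signed difference here would turn round. For Gprc5b 1451411_at, Coq7 and both Apbb1 probe sets the fold sizes equal those of the study after rounding, so only the direction differs. Which genotype a label stands for could not be settled from the files, so groups are named by label throughout. No direction given here should be read as that of a genotype. No listed probe set passed a Benjamini-Hochberg adjusted p of 0.05, with 0.999 the lowest adjusted p among them. Over the whole array 0 of 22626 passed (0.0%), with 0.822 the lowest. At an unadjusted p under 0.05, 8 of the 74 listed probe sets (10.8%) differed, against 3.67% of all probe sets. Of these 8, 2 were higher on the arrays labelled null (all probe sets, 1.24%) and 6 were lower (2.43%). With each array centred on its median the listed counts were 1 higher and 8 lower, and with quantile normalization 2 higher and 4 lower, where 2.32% of all probe sets were higher and 1.86% lower. The methods' t-test called 5 listed probe sets, 2 higher and 3 lower, against 3.39% of all.

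The 8 probe sets belong to 8 different genes, which is 19.5% of the 41, against 5.72% of all genes with any probe set at that p. Counted by the probe set with the highest mean of each gene, 3 of 41 genes (7.32%) differed, against 3.94% of all genes. There was 0 of 74 listed probe sets in which the arrays of one label all lay above those of the other, against 0.623% of all probe sets. By the brightest probe set it was 0 of 41 genes, against 0.686% of all. In every listed probe set the ranges of the labels overlapped. Apbb1, Gprc5b, Coq7 and Knop1 lie in the same stretch but outside the list, and each had a probe set without overlap. The counts of 0 therefore hold for the list and not for the stretch.

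The differences were small in size. Of the 74 probe sets, 53 (71.6%) differed by less than 0.1 between the labels, against 76.4% of all probe sets, and 65 (87.8%) by less than 0.2, against 92.9%. The largest positive difference was 0.28, in Plekha7, and the largest negative one was -0.40, in Sox6. By the brightest probe set the median difference was -0.01 over the 41 genes and -0.00 over all genes, with 23 below 0 and 18 above. Among bright genes alone, 18 of 28 (64.3%) were below 0, against 65.1% of all bright genes, and the median size was 0.0821, against 0.0804. The 95% interval of the difference reached 0.174 to either side at the median, and in 68 of the 74 probe sets it stayed within 1.4-fold. It reached 1.4-fold in 6 and 2-fold in 1, a probe set of Tmem41b.

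**Figure D1:**
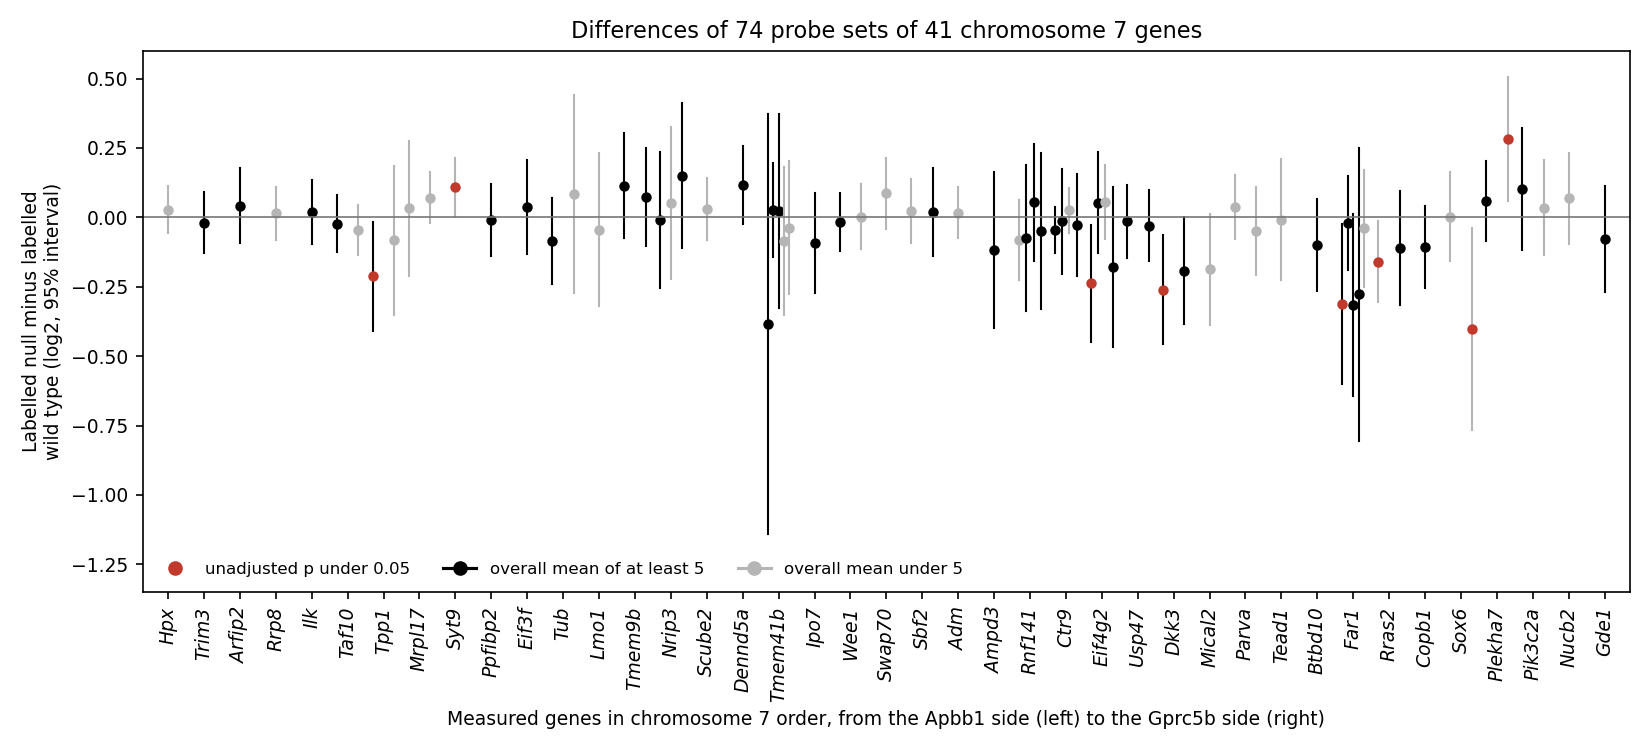
Mean on the arrays labelled null minus that on the arrays labelled wild type (log2, vertical axis) for the 74 probe sets, ordered along chromosome 7 from the Apbb1 side on the left to the Gprc5b side on the right. Points are limma estimates and lines their 95% intervals over 5 arrays per label; red points have an unadjusted p under 0.05, black ones a mean of at least 5 and grey ones a lower mean. Most points lie within 0.1 of 0, and 6 of the 8 red points lie below it.

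Along the chromosome, the 14 measured genes nearest Apbb1, from Hpx to Tmem9b, had a median difference of 0.02 with 6 below 0. The next 14, from Nrip3 to Usp47, had a median of 0.00 with 7 below 0, and the 13 farthest, from Dkk3 to Gde1, a median of -0.10 with 10 below 0. In these stretches 2 of 14, 1 of 14 and 5 of 13 genes had a probe set at an unadjusted p under 0.05. Over all genes that share was 5.72%. Below 0 were 51.2% of all genes and 65.1% of all bright genes. The cuts were made after the values were seen, so these figures are a description without a test.

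Dkk3, a secreted glycoprotein of the Dickkopf family, whose founding members block Wnt signalling, had the smallest p of the listed genes. Its probe set 1417312_at read 9.45, 9.28, 9.29, 9.53 and 9.38 on the arrays labelled null and 9.64, 9.48, 9.90, 9.75 and 9.46 on those labelled wild type. The ranges overlapped only between 9.46 and 9.53. The difference was -0.26 ± 0.09 (SE, n = 5 each; limma p = 0.0142, adjusted p = 0.999), and the exact permutation test gave p = 0.0317. The brighter probe set of the gene, 1448669_at, read 10.39, 10.63, 10.27, 10.47 and 10.51 on arrays labelled null against 10.51, 10.79, 10.44, 10.72 and 10.78 on arrays labelled wild type, a difference of -0.19 ± 0.09 (SE, n = 5 each; limma p = 0.0502, exact permutation p = 0.0794). Both probe sets were lower on the arrays labelled null, and the 1 set against the other within each array differed by 0.07 with a 95% interval of -0.26 to 0.40. With null replicate 2, wild type replicate 1 or wild type replicate 3 left out, the limma p of 1448669_at was 0.0239, 0.0323 and 0.0164. The difference of 1417312_at kept an unadjusted p under 0.05 whichever array was left out and lost it under quantile normalization (-0.19, with a limma p of 0.0857).

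Far1, a fatty acyl-CoA reductase of peroxisomes that makes the fatty alcohols for ether lipids such as plasmalogens, was read by 5 probe sets. Of these, 1426371_at, 1426369_at and 1435315_s_at had lower means on the arrays labelled null by more than 0.2, and the others did not. Probe set 1426369_at read 7.79, 7.85, 8.02, 7.38 and 7.64 on the arrays labelled null and 7.90, 8.33, 7.98, 8.21 and 7.82 on those labelled wild type, a difference of -0.31 ± 0.13 (SE, n = 5 each; limma p = 0.0363, exact permutation p = 0.0714). Probe set 1426371_at read 8.67, 8.58, 8.87, 8.33 and 9.02 on arrays labelled null against 8.60, 9.15, 9.21, 9.17 and 8.92 on arrays labelled wild type, a difference of -0.32 ± 0.15 (SE, n = 5 each; limma p = 0.0572, exact permutation p = 0.0952). In both, null replicate 4 was the lowest of the 10 arrays. Set 1435315_s_at read 8.49, 8.75, 8.81, 7.37 and 8.23 on arrays labelled null against 8.37, 8.64, 8.63, 8.58 and 8.81 on arrays labelled wild type, and there null replicate 4 was again the lowest. Its difference was -0.28 with all arrays and -0.04 once null replicate 4 was left out. The limma p of 1426369_at was above 0.05 when any of 4 arrays was left out: it was 0.0857 for null replicate 4, 0.0725 for null replicate 5, 0.0883 for wild type replicate 2 and 0.0822 for wild type replicate 4. It was also above 0.05 with values under 4 set to 4 (0.0617), the methods' t-test (0.0628) and quantile normalization (0.0695). The limma p of 1426371_at was below 0.05 with median centring (0.0489) and quantile normalization (0.0438), and when null replicate 3 (0.0491), null replicate 5 (0.0211) or wild type replicate 1 (0.00983) was left out. Probe sets 1426370_at and 1453550_a_at differed by -0.02 and -0.04.

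Eif4g2, a relative of the translation scaffold eIF4G that works in cap-independent initiation, was among the brightest listed genes. Its probe set 1415863_at read 10.45, 10.45, 10.36, 10.24 and 10.59 on the arrays labelled null and 10.37, 10.67, 10.79, 10.86 and 10.59 on those labelled wild type. Wild type replicate 1 lay within the null range and the other wild type arrays at or above its upper end, and the difference was -0.24 ± 0.10 (SE, n = 5 each; limma p = 0.0304), with an exact permutation p of 0.0556. The brightest set, 1452758_s_at, read 12.47, 12.52, 12.60, 12.19 and 12.63 on arrays labelled null against 12.20, 12.91, 12.72, 12.78 and 12.68 on arrays labelled wild type, a difference of -0.18 (limma p = 0.199, exact permutation p = 0.254). Wild type replicate 1 was again the low array of its label, and once it was left out the difference was -0.29 with a limma p of 0.00988. The bright set 1428362_at ran the other way, at 0.05, with 10.31, 10.35, 10.20, 10.32 and 10.44 on arrays labelled null against 10.56, 10.09, 10.25, 10.27 and 10.19 on arrays labelled wild type. The limma p of 1415863_at was above 0.05 when null replicate 3 or 4 or wild type replicate 2, 3 or 4 was left out, with values of 0.0519 to 0.0764.

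Tpp1, the lysosomal tripeptidyl peptidase whose loss causes a form of neuronal ceroid lipofuscinosis in children, had a bright and a dim probe set. The bright one, 1434768_at, read 7.67, 7.81, 7.80, 7.59 and 7.87 on the arrays labelled null and 7.84, 8.26, 7.96, 7.92 and 7.81 on those labelled wild type, a difference of -0.21 ± 0.09 (SE, n = 5 each; limma p = 0.0353; exact permutation p = 0.0397). Wild type replicate 2 was the highest array, and without it the difference was -0.14 (limma p of 0.0589). The p was also above 0.05 when null replicate 1 (0.0746), null replicate 4 (0.0856) or wild type replicate 3 (0.0582) was left out. It was 0.0505 to 0.057 with values under 4 set to 4, a variance prior that followed intensity, dim probe sets left out, quantile normalization or the methods' t-test. The dim set 1448313_at differed by -0.08 with a 95% interval of -0.35 to 0.19.

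Rras2 encodes TC21, a small GTPase related to Ras. Its dim probe set 1417398_at read 3.32, 3.55, 3.50, 3.42 and 3.67 on the arrays labelled null and 3.65, 3.74, 3.69, 3.57 and 3.59 on those labelled wild type, a difference of -0.16 ± 0.07 (SE, n = 5 each; limma p = 0.0352, exact permutation p = 0.0476). Null replicate 5 alone lay inside the wild type range. The brighter set 1448689_at differed by -0.11 with a 95% interval of -0.32 to 0.09, and by -0.18 when null replicate 5 was left out (limma p of 0.0314). The p of 1417398_at was above 0.05 in 6 of the 10 fits that left out 1 array, namely null replicate 1, 3 or 4 and wild type replicate 1, 2 or 3, with values of 0.0547 to 0.0836.

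Sox6, a transcription factor of the SoxD group that is needed in development for interneurons derived from the medial ganglionic eminence, had low values on every array. Its probe set 1427677_a_at read 3.62, 4.03, 3.61, 4.09 and 4.26 on the arrays labelled null and 4.11, 4.15, 4.81, 4.37 and 4.17 on those labelled wild type, a difference of -0.40 ± 0.17 (SE, n = 5 each; limma p = 0.0338; exact permutation p = 0.0714). Wild type replicate 3 stood above the others, and without it the difference was -0.28 (limma p of 0.0754). With null replicate 1, null replicate 3 or wild type replicate 4 left out instead, the p was 0.083, 0.0838 and 0.0612, and it was 0.111 with values under 4 set to 4 and 0.0615 with the methods' t-test. The other set, 1426018_a_at, averaged 1.69 on the arrays labelled null and 1.68 on those labelled wild type, a difference of 0.00.

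The 2 probe sets with higher values on the arrays labelled null were dim. Plekha7, a protein of the zonula adherens that links cadherin junctions to microtubules, read 2.29, 2.20, 2.20, 2.13 and 2.50 in probe set 1455343_at on the arrays labelled null and 2.13, 1.69, 2.09, 1.85 and 2.14 on those labelled wild type. The difference was 0.28 ± 0.10 (SE, n = 5 each; limma p = 0.0181; exact permutation p = 0.0238), and it kept an unadjusted p under 0.05 whichever array was left out. The brighter set of the gene, 1434889_at, differed by 0.06 with a 95% interval of -0.09 to 0.20. Syt9, a synaptotagmin that senses calcium in vesicle release, read 1.98, 1.97, 2.11, 1.98 and 2.14 on arrays labelled null against 1.94, 1.90, 1.87, 1.95 and 1.99 on arrays labelled wild type, a difference of 0.11 ± 0.05 (SE, n = 5 each; limma p = 0.0482, exact permutation p = 0.0317). Its limma p was above 0.05 when null replicate 3 or 5 or wild type replicate 1, 2, 3 or 4 was left out, with values of 0.0669 to 0.112, and it was 0.0822 with median centring and 0.111 with quantile normalization. Values near 2 are at the foot of the GC-RMA scale, where a log2 difference says little about transcript number.

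**Figure D2:**
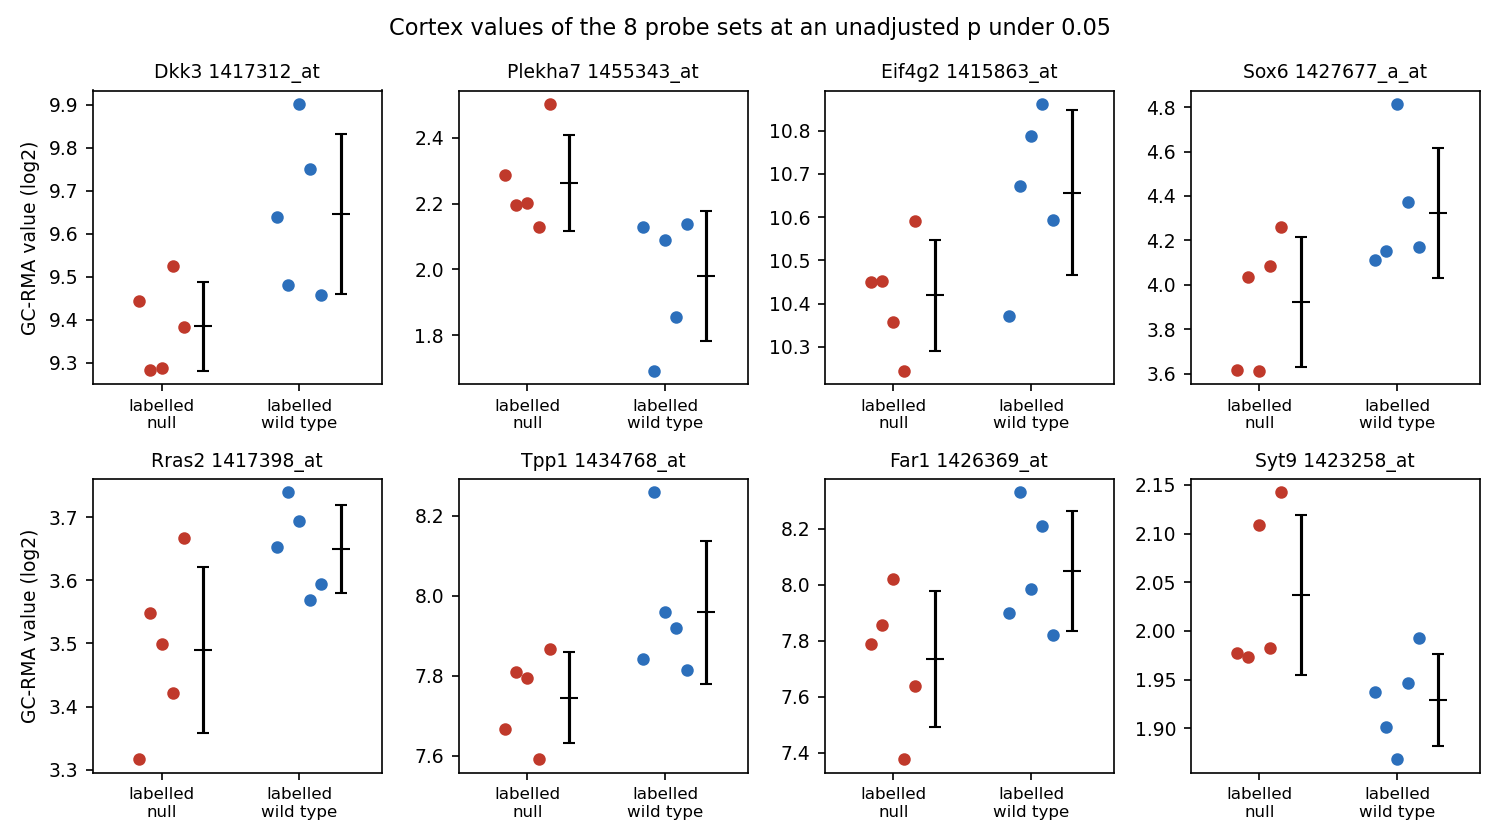
GC-RMA values (log2, vertical axes, each with its own range and none starting at 0) of the 8 probe sets with an unadjusted p under 0.05, in the mice labelled null (red, left) and labelled wild type (blue, right). Each point is 1 mouse, and the bar is the mean with its SD over 5 mice. In each panel at least 1 mouse of one label lies within the range of the other.

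Promoter sequence is shown for Far1, Tpp1 and Rras2, the genes with a lower probe set that had a single RefSeq promoter window. Each window holds the 250 bases before the transcript start that RefSeq uses for it. The annotated gene span begins earlier than that start in Far1, where 115 bases of the window lie inside the span, and in Tpp1, where 47 do, whereas the Rras2 window lies wholly before its gene. They are RefSeq sequences of the reference strain in build GRCm38.p6, read 5′ to 3′ on the gene's strand, with the GC box GGGCGG, or its reverse complement CCGCCC, in capitals. Far1 lies at chr7:113513584-113513833 on the plus strand, Tpp1 at chr7:105752236-105752485 and Rras2 at chr7:114117782-114118031, both on the minus strand.
Far1: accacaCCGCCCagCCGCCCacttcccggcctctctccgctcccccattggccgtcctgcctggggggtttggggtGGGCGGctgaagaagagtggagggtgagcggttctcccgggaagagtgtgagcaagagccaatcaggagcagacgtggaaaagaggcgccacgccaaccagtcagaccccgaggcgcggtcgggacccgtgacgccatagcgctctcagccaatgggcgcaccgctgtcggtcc
Tpp1: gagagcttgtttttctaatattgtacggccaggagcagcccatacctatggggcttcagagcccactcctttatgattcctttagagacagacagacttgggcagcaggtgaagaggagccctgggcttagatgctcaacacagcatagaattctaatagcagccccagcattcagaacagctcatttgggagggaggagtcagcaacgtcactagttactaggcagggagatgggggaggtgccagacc
Rras2: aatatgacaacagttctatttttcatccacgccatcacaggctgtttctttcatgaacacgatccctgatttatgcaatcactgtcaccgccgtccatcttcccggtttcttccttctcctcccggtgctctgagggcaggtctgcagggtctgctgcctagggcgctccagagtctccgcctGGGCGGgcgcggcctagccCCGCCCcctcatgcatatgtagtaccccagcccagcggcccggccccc
The window of Far1 held 3 GC boxes and 21 CpG at 67.6% G and C, that of Rras2 held 2 boxes and 14 CpG at 59.6%, and that of Tpp1 held 0 boxes and 2 CpG at 51.6%. Over 32851 windows of the same length 32.7% held a box, with a median of 6 CpG and 52.4% G and C. Of the 32 measured listed genes with a window, 24 held a box in any of their windows. That count is per gene, so the share per window is no background for it. The sequences are of the reference strain and show no allele of these mice.

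The comparison of probe sets within a gene asked whether 1 part of a transcript differed where another did not. Of the listed genes, 20 had 2 or more probe sets, and each other set was subtracted from the brightest on the same array, which gave 33 pairs. At an unadjusted p under 0.05, 1 of the 33 pairs differed between labels, against 3.33% of the 7987 pairs over 4956 genes, and 0 passed the adjusted p (0.0% of all pairs, lowest adjusted p 0.974). That pair was Sox6, at -0.40 ± 0.17 (SE, n = 5 each; limma p = 0.0315, exact permutation p = 0.0556), and both of its probe sets are dim, with overall means of 4.12 and 1.69. In the 15 pairs with both sets bright, 0 differed, 4 had differences of opposite sign, and the median size of the pair difference was 0.0411, against 0.102 over the 2233 such pairs of the array.

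Tmem41b, a membrane protein of the endoplasmic reticulum needed for autophagosome formation, had the largest pair difference among bright sets. Its probe set 1428586_at read 6.02, 6.36, 6.86, 6.17 and 7.55 on the arrays labelled null and 6.17, 7.84, 7.21, 6.83 and 6.83 on those labelled wild type, a difference of -0.38 ± 0.34 (SE, n = 5 each; limma p = 0.286, exact permutation p = 0.341). Single arrays moved it. Leaving out wild type replicate 2 or 1 gave -0.17 and -0.59, and leaving out null replicate 1 or 5 gave -0.24 and -0.62. Set 1428587_at of the same gene read 6.76, 6.74, 6.79, 6.77 and 6.95 on arrays labelled null against 6.64, 6.99, 6.70, 6.89 and 6.65 on arrays labelled wild type, a difference of 0.03. The within-array difference of these sets was 0.41 with a 95% interval of -0.22 to 1.04. The spread of 1428586_at lay within both labels, with an SD within groups of 0.615, above that of 99.2% of bright probe sets. Far1 1435315_s_at, at 0.427, stood above 95.5%, and the listed bright probe sets had a median SD of 0.138, against 0.180 over all bright ones. Wild type replicate 2 was the highest array in all 5 probe sets of Tmem41b, at 7.28, 4.39 and 4.33 in 1437402_x_at, 1438117_x_at and 1438790_x_at. Sets 1438117_x_at and 1438790_x_at were dim, with overall means of 3.85 and 3.91. That array was also the highest in 22.5% of all bright probe sets.

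**Figure D3:**
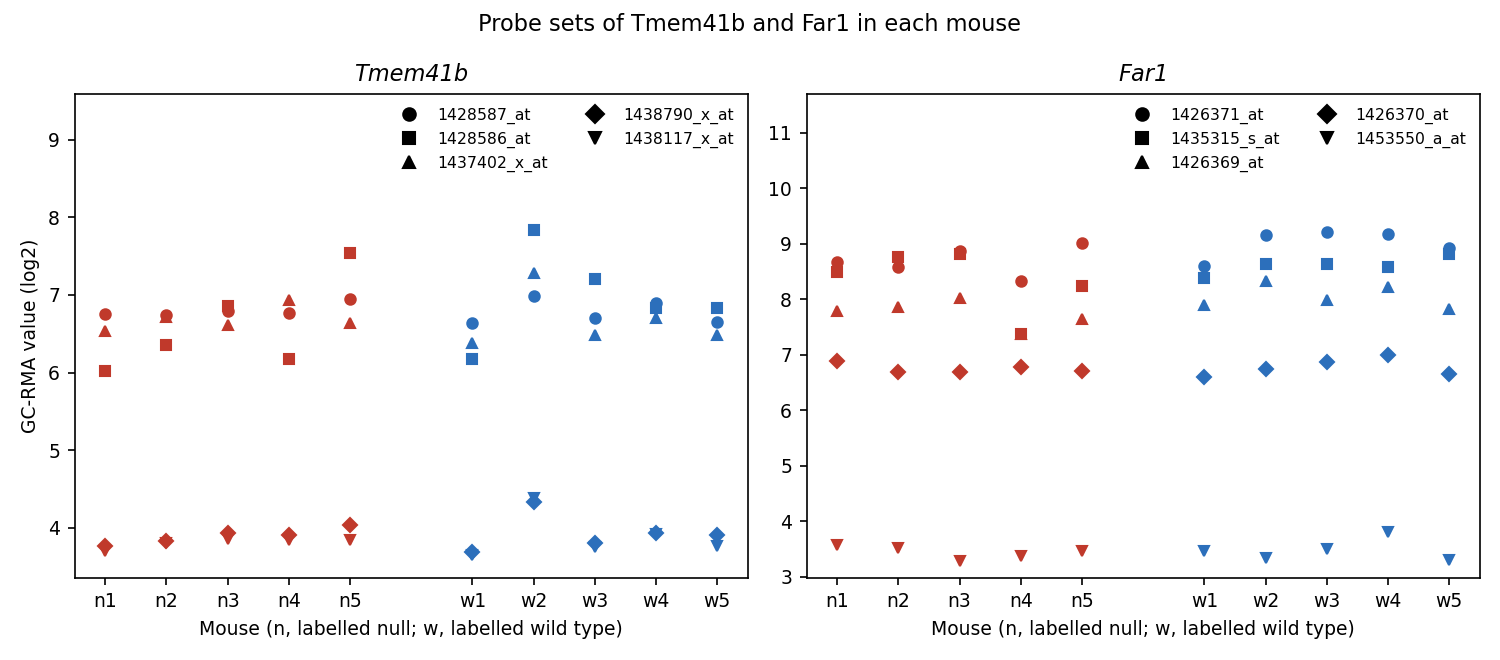
GC-RMA values (log2, vertical axes) of the 5 probe sets each of Tmem41b (left panel) and Far1 (right panel) in every mouse, labelled null in red (n1 to n5) and labelled wild type in blue (w1 to w5), with 1 marker shape per probe set. Tmem41b 1428586_at ranges from 6.02 to 7.84 across mice while 1428587_at stays between 6.64 and 6.99, and Far1 1435315_s_at is low in null replicate 4, at 7.37.

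The same comparison was made for genes of the stretch outside the list. The 2 probe sets of Gprc5b, at its far end, differed within arrays by 1.73 ± 0.88 on the arrays labelled null and by 0.63 ± 0.34 on those labelled wild type (1424613_at minus 1451411_at; SD, n = 5 each), a difference of 1.10 ± 0.36 (SE; limma p = 0.0109, adjusted p = 0.974, exact permutation p = 0.0159), larger than in any listed pair. Null replicate 2 had the highest value, at 3.24 against 1.00 to 1.61 on the other arrays labelled null, and without it the difference was 0.72 (limma p of 0.0029). Those of Syt17, a synaptotagmin family gene near it, differed by 2.83 ± 0.28 on the arrays labelled null and 3.26 ± 0.22 on those labelled wild type (1433909_at minus 1422955_at; SD, n = 5 each), a difference of -0.43 ± 0.15 (SE; limma p = 0.0127, adjusted p = 0.974, exact permutation p = 0.0397). For Apbb1, at the near end, the values were 0.27 ± 0.15 on the arrays labelled null and 0.12 ± 0.04 on those labelled wild type (1423893_x_at minus 1423892_at; SD, n = 5 each), a difference of 0.15 ± 0.08 (SE; limma p = 0.102, exact permutation p = 0.0476), and 0.09 without null replicate 5. By the study's supplementary notes both Apbb1 probe sets lie at the 3′ end of the transcript, in a part that null and wild type mice share, so they cannot show the deletion, and the study gives both as lower in null mice, opposite to the labels used here.

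**Figure D4:**
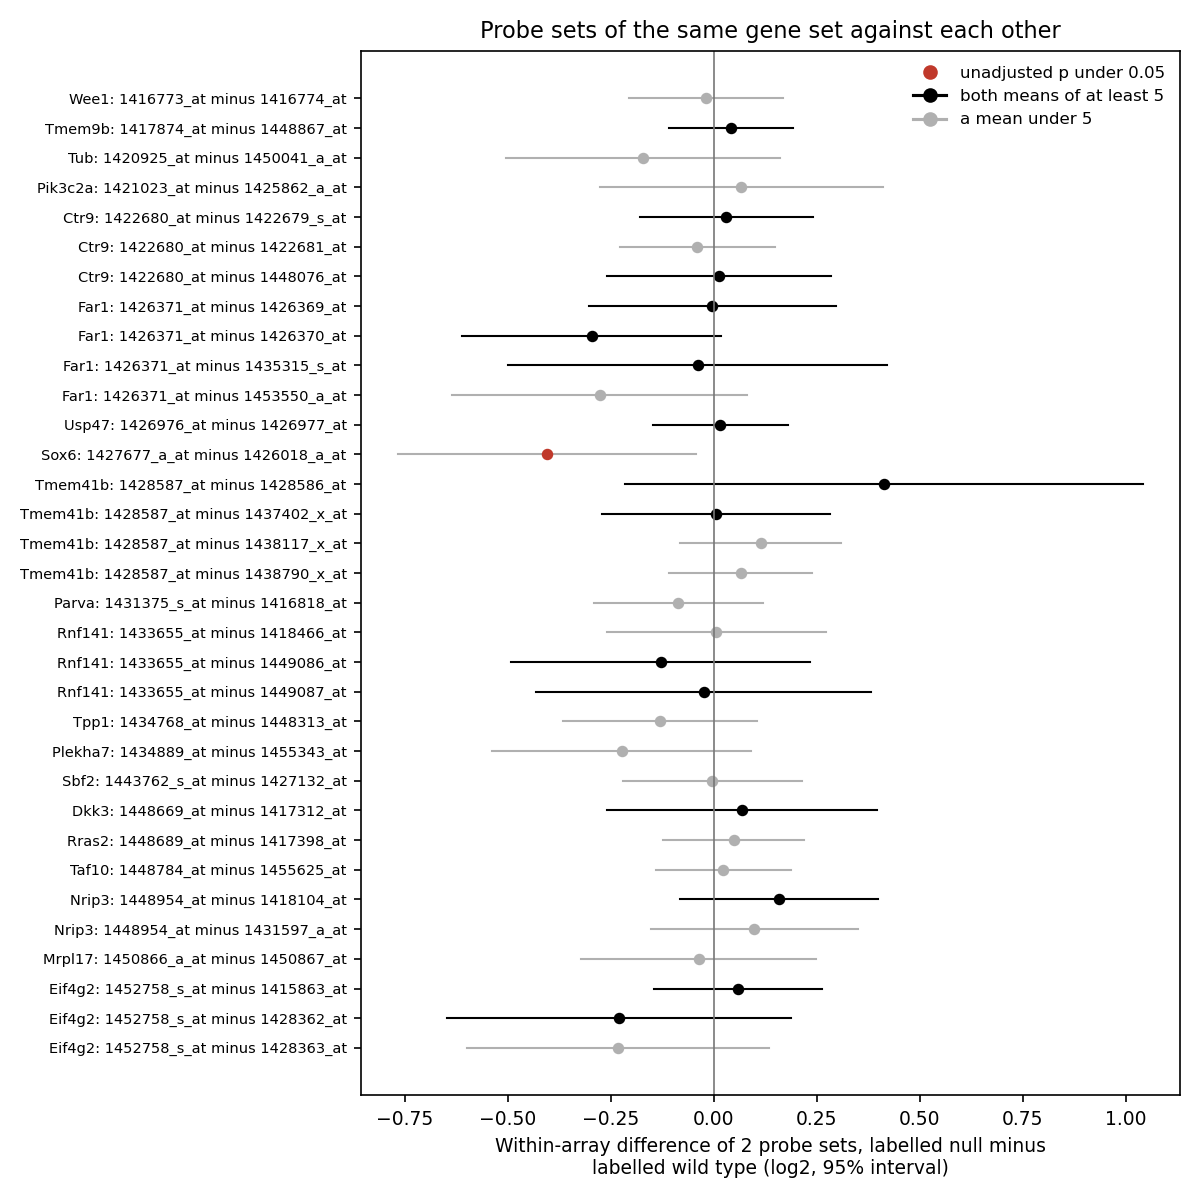
Within-array difference of the brightest probe set minus another of the same gene, as the arrays labelled null minus those labelled wild type (log2, horizontal axis), for the 33 pairs of 20 listed genes. Points are limma estimates with 95% intervals over 5 arrays per label; the red point (Sox6) has an unadjusted p under 0.05, black ones are pairs with both means of at least 5, and grey ones have a lower mean in the pair. The pair of Tmem41b 1428587_at and 1428586_at has the widest interval, which includes 0.

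Of the other genes by role, those of gene expression and translation had 7 of 9 genes measured with 15 probe sets, of which 0 were higher and 1 (Eif4g2) was lower at an unadjusted p under 0.05, and a median difference of -0.01. The shares over all probe sets, 1.24% higher and 2.43% lower, are the background for this count and for those of the roles and gene lists that follow. Eif3f, a subunit of the translation factor eIF3, read between 11.43 and 11.77 on the arrays labelled null and between 11.33 and 11.63 on those labelled wild type. Ipo7, an importin that carries ribosomal proteins and other cargo into the nucleus, lay between 10.73 and 11.07 on the arrays labelled null and between 10.82 and 11.12 on those labelled wild type. Ctr9, of the PAF1 complex that travels with RNA polymerase II, was read by 4 probe sets whose differences lay between -0.05 and 0.03. Taf10, a subunit of TFIID and SAGA, differed by -0.02 in its bright set with a 95% interval of -0.12 to 0.08. Rrp8, a nucleolar protein of ribosomal RNA processing, and Mrpl17, of the mitochondrial ribosome, were dim and had differences of 0.01 and 0.03 in their brightest sets, within the spread between arrays. The eIF3 and eIF4F subunits outside the list (16 measured, 39 probe sets) had 1 higher (all probe sets, 1.24%) and 1 lower (2.43%), namely Eif3l 1423728_at at 0.28 (limma p = 0.00621, exact permutation p = 0.0159) and Eif3a 1448425_at at -0.22 (limma p = 0.004, exact permutation p = 0.0159). The other PAF1 complex subunits (3 measured, 9 probe sets) had 0 higher and 1 lower (2.43% of all probe sets), Paf1 at -0.24 (limma p = 0.00887, exact permutation p = 0.00794). The labels of Paf1 did not overlap, as in 0.623% of all probe sets.

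Trafficking and lysosome genes had 9 of 10 measured with 17 probe sets, 1 higher (Syt9) and 1 lower (Tpp1), and a median of 0.04. Dennd5a, an exchange factor for Rab GTPases, was the brightest of them and read 11.63, 11.44, 11.58, 11.61 and 11.76 on the arrays labelled null and 11.53, 11.61, 11.48, 11.46 and 11.38 on those labelled wild type, a difference of 0.12 ± 0.06 (SE, n = 5 each; limma p = 0.099, exact permutation p = 0.111). The ranges overlapped, and wild type replicate 2 was the high array of its label. The limma p was 0.0487 when that array was left out and 0.0249 when null replicate 2 was. Tmem9b, a lysosomal membrane protein, differed by 0.11 and 0.07 in 2 sets near 10. Copb1, the beta subunit of the coatomer that coats vesicles returning to the endoplasmic reticulum, differed by -0.11 with a 95% interval of -0.25 to 0.04. The other coatomer subunits (8 measured, 11 probe sets) had 0 at an unadjusted p under 0.05, with the smallest p in Copg1 at -0.11 (limma p = 0.147, exact permutation p = 0.159). Sbf2, a myotubularin-related protein, Arfip2, which binds Arf and Rac GTPases, and Pik3c2a, a class II phosphoinositide 3-kinase, differed by 0.02, 0.04 and 0.10 in their brightest sets.

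Adhesion and cytoskeleton genes had 6 of 8 measured with 8 probe sets, of which 1 (Plekha7) was higher and 0 were lower, and a median of 0.00. Ilk, the integrin-linked kinase that anchors integrins to actin, read between 7.43 and 7.63 on the arrays labelled null and between 7.37 and 7.60 on those labelled wild type, a difference of 0.02 with a 95% interval of -0.10 to 0.14. Its partner Parva was dim, at 2.71 on the arrays labelled null and 2.76 on those labelled wild type in its brighter set. Ppfibp2, a liprin, and Swap70, a guanine nucleotide exchange factor for Rac that was dim, had differences of -0.01 and 0.09, also within that spread. Mical2, an enzyme that oxidises actin, differed by -0.19 (limma p = 0.0645, exact permutation p = 0.0714) at means of 3.98 on the arrays labelled null and 4.17 on those labelled wild type. The other ILK, PINCH and parvin genes (10 measured, 23 probe sets) had 0 at an unadjusted p under 0.05, the smallest being that of Parvb at 0.09 (limma p = 0.0756, exact permutation p = 0.00794). The labels of Parvb did not overlap, as in 0.623% of all probe sets, but its means were near 1.8, at the foot of the scale.

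Transcription factor and signalling genes had 7 of 8 measured with 13 probe sets, 0 higher and 2 lower (Sox6 and Rras2), and a median of -0.04. Nrip3, a nuclear receptor interacting protein by name, had the highest difference of the group: 1448954_at read 10.65, 10.19, 10.21, 9.99 and 10.40 on the arrays labelled null and 10.35, 9.95, 10.05, 10.15 and 10.18 on those labelled wild type, a difference of 0.15 ± 0.12 (SE, n = 5 each; limma p = 0.231, exact permutation p = 0.262). Its second bright set, 1418104_at, differed by -0.01. Tub, the founder of the tubby family, whose loss makes mice obese, differed by -0.09 in its bright set with a 95% interval of -0.24 to 0.07. Wee1, the kinase that holds back mitosis, differed by -0.02, and Lmo1 and Tead1 were dim, at -0.04 and -0.01. The other Hippo and Dachsous-Fat genes, in the pathway that ends at TEAD factors (18 measured, 37 probe sets), had 0 at an unadjusted p under 0.05. The smallest p values there were in Fjx1 1422733_at, at -0.21 (limma p = 0.0642, exact permutation p = 0.111), and Stk4, at 0.10 (limma p = 0.0642, exact permutation p = 0.0476).

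Secreted genes had 5 of 7 measured with 6 probe sets, 0 higher and 1 lower (Dkk3), and a median of 0.03. Apart from Dkk3 they were dim. Adm, the vasodilator peptide adrenomedullin, averaged 1.52 on the arrays labelled null and 1.50 on those labelled wild type. Hpx, the haem carrier haemopexin, Scube2 and Nucb2, which gives nesfatin, differed by 0.03, 0.03 and 0.07, with no mean above 2.50. The other adrenomedullin and CGRP signalling genes (7 measured, 8 probe sets) had 0 at an unadjusted p under 0.05, the smallest being that of Calcrl 1425814_a_at at -0.10 (limma p = 0.102, exact permutation p = 0.111).

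Enzymes, ubiquitin factors and other membrane proteins had 7 of 8 measured with 15 probe sets, 0 higher and 1 lower (Far1). Their median was -0.08, with 7 of 7 genes below 0 by the brightest set. All 7 had a bright set, and 65.1% of all bright genes were below 0. Ampd3, an AMP deaminase, read 5.98, 6.40, 6.38, 6.17 and 6.69 on the arrays labelled null and 6.31, 6.68, 6.25, 6.51 and 6.45 on those labelled wild type, a difference of -0.12 ± 0.13 (SE, n = 5 each; limma p = 0.376, exact permutation p = 0.436). Both labels covered much the same range. Btbd10 differed by -0.10, Gde1, a glycerophosphodiester phosphodiesterase, by -0.08, and Trim3, a ubiquitin ligase of brain, by -0.02. Usp47, a deubiquitinase, differed by -0.01 and -0.03 in 2 bright sets, and Rnf141 by between -0.08 and 0.05 in 4.

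Measured genes of the same stretch that are not in the list (23 genes, 36 probe sets, Apbb1 and Gprc5b included) had 6 probe sets higher (all probe sets, 1.24%) and 1 lower (2.43%) at an unadjusted p under 0.05, in 6 genes (5.72% of all genes). The labels did not overlap in 4 probe sets of 4 genes, against 0.623% of all probe sets and 0 of the 74 listed ones. They were known from earlier results of these data, so the counts carry no test. Coq7, a hydroxylase of ubiquinone synthesis, read 8.53, 8.59, 8.78, 8.54 and 9.01 on the arrays labelled null and 8.19, 8.27, 8.07, 8.16 and 8.15 on those labelled wild type, a difference of 0.52 ± 0.09 (SE, n = 5 each; limma p = 0.000153, adjusted p = 0.822, exact permutation p = 0.00794, the smallest possible). No array of one label lay within the range of the other. The exact permutation p was also 0.00794 for Apbb1 1423893_x_at, which differed by 0.26 (limma p = 0.00118), for Gprc5b 1451411_at, at -1.23 (limma p = 0.0063), and for the dim Knop1 1435690_at, at -0.09 (limma p = 0.0604). It was 0.0159 for 1110004F10Rik, at 0.22 (limma p = 0.0046), for Spon1 1424415_s_at, at 0.45 (limma p = 0.0102), and for both probe sets of Syt17, at 0.65 and 0.22 (exact permutation; limma p = 0.000995 and 0.00794).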

How the data were processed

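RNA of 10 mouse cortices was measured on 10 Affymetrix arrays, 5 per label. The deposited log2 values were made by the authors with GC-RMA, which adjusts for probe GC content, normalizes and summarises probe sets (its version is not stated in the sources read). The 64 control probe sets were left out. Of the 22626 others, 20380 had 1 annotated gene, 691 several and 1555 none. Gene IDs matched 20349 to GRCm38.p6, used for names and order, since the array gives no build.

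Differences (arrays labelled null minus those labelled wild type) were fitted with limma 3.58.1 in R 4.3.3 (lmFit, eBayes; no pairing; Benjamini-Hochberg over all probe sets), and likewise for within-array differences of probe sets of 1 gene. In simulated data the fit recovered 40% of 100 bright probe sets changed 1.4-fold and 84% of 100 changed 2-fold, with 6 false calls. Recovery was counted at an adjusted p under 0.05. For pairs the shares were 43% and 82%, with 7 false calls. The simulated noise was normal and independent for each probe set or pair, and both sizes of change were present together. The real arrays had shared shifts, such as null replicate 5 being the highest in 26.9% of bright probe sets. The simulated shares therefore need not hold for these arrays. Single values had exact permutation tests (two-sided, smallest possible p 0.00794). The number of arrays limits precision, and p-values measure only the spread between these mice.

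Genes named are those with an unadjusted p under 0.05, groups without overlap, up to 8 of the largest bright differences, a pair at that p, and per gene list those at that p or the smallest p, plus Apbb1, Gprc5b, Syt17 and Coq7. Other members are described by role. Members, lists and rules were chosen with earlier results of these data known. Alternatives were a replicate block, median centring, quantile normalization, leaving out dim probe sets, a floor at 4, an intensity trend with robust prior, the methods' t-test, the probe set with the largest spread, and leaving out each array. Probe sequences were not used here.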

Additional observations from a re-analysis of the deposited data

Results flagged for a closer look

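Within groups of 5 arrays, 9 values stood far from the other 4 by Dixon's criterion, out of 148 groups of listed probe sets, where chance alone gives about 5%, or 7.4 groups. Of these, 4 were in probe sets with a mean of at least 5. On the arrays labelled null, Tmem41b 1428587_at read 6.95 in replicate 5, with the others at 6.74 to 6.79. On those labelled wild type, replicate 2 read 9.70 in Tmem9b 1448867_at (others 9.90 to 9.94) and 8.23 in Sbf2 1443762_s_at (others 7.83 to 7.94), and replicate 1 read 4.80 in Plekha7 1434889_at (others 4.99 to 5.05).

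The other 5 were dim. Mrpl17 1450866_a_at read 4.43 in null replicate 5 (others 3.88 to 3.96), Wee1 1416774_at 2.06 in null replicate 1 (others 1.80 to 1.87), Hpx 1423944_at 1.99 in null replicate 3 (others 1.95 to 1.96) and Ctr9 1422681_at 1.81 in null replicate 4 (others 1.74 to 1.76). Pik3c2a 1425862_a_at read 1.81 in wild type replicate 2 (others 2.05 to 2.15). None of these 9 probe sets had an unadjusted limma p under 0.05.

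Among the 43 bright listed probe sets, null replicate 5 was the highest array in 11 and wild type replicate 2 in 12, where over all bright probe sets these arrays were the highest in 26.9% and 22.5%. Null replicate 4 was the lowest in 10, against 20.3% over all bright probe sets.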

How the results depend on the processing

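No listed probe set passed the adjusted p under any of the 17 alternatives run. Probe sets at an unadjusted p under 0.05 (2 higher, 6 lower) numbered 0 and 2 with a floor at 4 (all probe sets, 0.42% and 1.34%), 0 and 3 of the 43 tested with dim probe sets left out (0.60% and 3.92%), 1 higher with median centring and 3 lower with the methods' t-test. Pairs at that p (1) numbered 0 with the floor, without dim sets and with the t-test. Groups without overlap (0) numbered 1 with median centring. Leaving out each array gave 1 to 4 higher, 2 to 9 lower, 0 to 5 pairs, 0 to 2 genes without overlap and medians of -0.03 to 0.01. By array left out, the lower count was 9 for null replicate 5 (5.64% of all probe sets lower), 2 for null replicate 4 (1.75%), and 3 for null replicate 1 or wild type replicate 2, 3 or 4 (1.75% to 2.06%). The higher count was 4 for wild type replicate 2 (1.98% of all higher), and 1 for null replicate 3 or wild type replicate 1, 3 or 4. Pairs numbered 5 for wild type replicate 1, 4 for null replicate 5, and 0 for null replicate 1 or 4 or wild type replicate 3 or 4. The median was 0.02 with quantile normalization. The cause of these shifts was not tested. Leaving out arrays for the neighbouring genes and their pairs was chosen after seeing the data.

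Same-numbered arrays had correlated deviations of 0.0664 to 0.535, and 1 of 5 null arrays correlated best with its own number, so the numbers were not taken as pairs. With the replicate number as a block, 1 probe set was higher, 5 were lower and 1 pair differed, and 1.42% of all probe sets were higher and 3.34% lower. In that fit the limma p of Dkk3 1448669_at was 0.0038, and those of Sox6 1427677_a_at, Syt9 and Eif4g2 1415863_at were 0.0603, 0.0654 and 0.0668. Low signal over background limits what the dim probe sets can show.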
